A study of Caenorhabditis elegans with 2 samples.

Results

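The 26S proteasome is the protease that degrades most ubiquitin-tagged proteins in the cytoplasm and nucleus of eukaryotic cells. Its 20S core is a barrel of stacked rings, with α subunits in the outer rings that gate entry and β subunits in the inner rings that cut the substrate. Its 19S cap recognises tagged proteins, removes the ubiquitin, unfolds the substrate with a ring of ATPases and feeds it into the barrel. The poly(A) tail at the end of an mRNA is bound by poly(A)-binding protein and is shortened by deadenylases before most mRNAs decay. The genes described here encode the subunits of the core and of the cap, and were chosen by name alone, as all genes whose listed symbol was pas, pbs, rpt or rpn followed by a number. There were 32 such genes among the 13601 listed, 14 of the core (pas-1 to pas-7 and pbs-1 to pbs-7) and 18 of the cap (rpt-1 to rpt-6 and 12 rpn genes). Reference annotation names 1 more rpn gene, rpn-13, which the table lists under a protein identifier and the naming rule therefore missed. The values of rpn-13 are given beside the others. The small lid subunit gene dss-1 has a name of another kind and is described with the genes that act with the proteasome.

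Tail lengths were measured by mTAIL-seq, which ligates an adapter to the end of poly(A) RNA and reads each tail's length from the sequencer's fluorescence signal. RNA came from whole C. elegans, the wild-type N2 Bristol strain. Synchronized animals were fed OP50 bacteria, kept at 25 °C and harvested after 29 h, in the middle of the last larval stage, L4. The labels describe 2 biological replicates of this 1 group, with no treatment and no control group, and each library holds RNA of all tissues, gonad included. The deposited table gives, for each gene, a list of tail lengths from both libraries together. No replicate error can be given and no test between conditions exists, so values below are compared between genes of the same pool, and intervals cover counting error only.

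The table held 17376490 tail calls, called tags here, of 5 to 231 nt, the longest length listed. Each tag is read from an mRNA 3′ end, so tag numbers need no scaling by transcript length. The members held 87029 tags together, 0.501% of all tags, and ranged from 421 tags in rpn-6.2 to 7677 tags in pbs-6. All 32 passed the minimum of 100 tags that 8803 genes passed, so no member is left out of the counts below.

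Proteasome subunit genes had tails shorter than those of most genes and close to each other in length. Over the 32 genes the gene medians had a median of 65 nt, against 80 nt over the 8803 genes. The middle 50% of the members lay between 62 and 71 nt, against 69 to 91 nt for all genes. The SD of the gene medians was 5.73 nt among the members and 17.0 nt among all genes. In 31 of the 32 members the 95% interval of the median, an exact binomial interval on the ordered tags, lay wholly below 80 nt. Over all 8803 genes 36.7% were below by this rule. By the same rule 0 members were above, where 35% of all genes were. Genes with more tags have narrower intervals and shorter tails, so the 3983 genes with between 421 and 7677 tags were taken as a closer background. Of these, 47.5% were below and 31.6% above. Their gene medians had a median of 77 nt and an SD of 14.6 nt. The exception was rpn-1, whose median of 78 nt had an interval from 76 to 80 nt. The members were below by a modest length. With a margin of 20 nt added, 3 of 32 were called, close to the 11.8% of all genes. Around the median over tags, 58 nt, 0 members were below, where 5.69% of all genes were, and 28 of 32 were above, where 85% of all genes were, so both counts were close to the background.

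**Figure D1:**
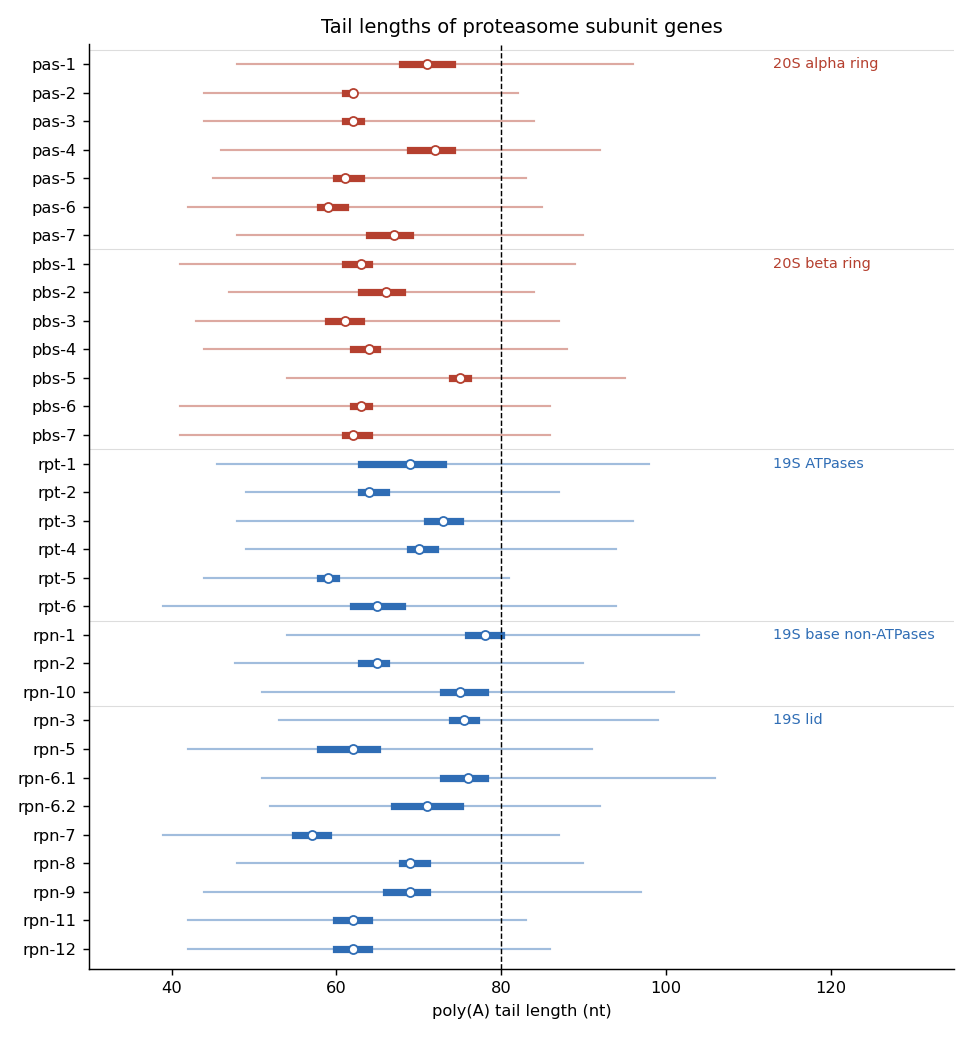
Poly(A) tail length (nt) of each proteasome subunit gene in the pooled L4 libraries, grouped by place in the particle, with the 20S core in red above the 19S cap in blue. Open circles are gene medians, thick bars their 95% counting intervals, thin lines the range from the 25th to the 75th percentile of the tails and the dashed line the median over genes, 80 nt. All medians lie between 57 and 78 nt, and only the interval of rpn-1 reaches the dashed line.

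The α ring genes had medians from 59 to 72 nt, with all 7 below the median over genes. The shortest was pas-6, at 59 nt (95% interval 58 to 61 nt, 2701 tags), a length that 9.93% of all analysed genes fell under. The most abundant were pas-3, at 62 nt (61 to 63 nt, 5925 tags), and pas-2, at 62 nt (61 to 62 nt, 5688 tags). Their intervals were among the narrowest of all members. pas-5 had a median of 61 nt and pas-7 of 67 nt. The longest were pas-4, at 72 nt (69 to 74 nt, 2348 tags), and pas-1, at 71 nt (68 to 74 nt, 1463 tags). The intervals of these longer α genes did not reach those of pas-2, pas-3, pas-5 or pas-6, so the ring's genes differed from each other by more than counting error.

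The β ring genes were closer together, apart from 1 gene. Of the 7 medians, 6 lay between 61 nt in pbs-3 and 66 nt in pbs-2. pbs-5, the counterpart of the chymotrypsin-like catalytic subunit of yeast and mammals, had a median of 75 nt (74 to 76 nt, 4520 tags). The other genes whose yeast and mammalian counterparts carry a catalytic threonine had shorter tails, at 63 nt (61 to 64 nt) in pbs-1 and 66 nt (63 to 68 nt) in pbs-2. The catalytic genes therefore did not share a length. pbs-6, the member with the most tags, had a median of 63 nt (62 to 64 nt), pbs-7 of 62 nt and pbs-4 of 64 nt. All 7 were below the median over genes, pbs-5 by 5 nt.

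The 6 ATPases of the cap, which form the unfolding ring, had medians from 59 to 73 nt, and all 6 were below the median over genes. rpt-5 was the shortest at 59 nt (58 to 60 nt, 3139 tags), and rpt-3 was the longest at 73 nt (71 to 75 nt, 2973 tags). Both rested on similar tag numbers, and their intervals did not meet. rpt-2 had a median of 64 nt, rpt-6 of 65 nt and rpt-4 of 70 nt. rpt-1 had the fewest tags of the ring, 691, and its median of 69 nt had a wide interval, 63 to 73 nt.

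The non-ATPase genes of the cap's base were rpn-1 and rpn-2, which encode its large scaffold proteins (in yeast the rpn-1 counterpart also binds ubiquitin), and rpn-10, which encodes a ubiquitin receptor. The scaffold genes differed by 13 nt. rpn-1 was the longest member of all at 78 nt (1869 tags), whereas rpn-2 had a median of 65 nt (63 to 66 nt, 2088 tags). rpn-10 had a median of 75 nt (73 to 78 nt, 937 tags). rpn-13, which also encodes a ubiquitin receptor of the cap and lay outside the naming rule, had a median of 64 nt (63 to 67 nt, 2458 tags) and was below the median over genes; its interval did not meet that of rpn-10.

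The lid, which carries the deubiquitinase, held both the shortest member and several of the longest. rpn-7 had a median of 57 nt (55 to 59 nt, 2315 tags), the shortest of all 32, with 7.78% of analysed genes below it. rpn-11, the deubiquitinase gene, had a median of 62 nt (60 to 64 nt), and its partner of the same protein fold, rpn-8, of 69 nt (68 to 71 nt). rpn-12 and rpn-5 were also at 62 nt and rpn-9 was at 69 nt. rpn-3 had a median of 75.5 nt (74 to 77 nt, 3464 tags). rpn-6.1, whose yeast counterpart bridges cap and core, had a median of 76 nt (73 to 78 nt, 1706 tags). All 9 lid genes within the naming rule were below the median over genes. A second copy of rpn-6.1, named rpn-6.2, had a median of 71 nt (67 to 75 nt) on 421 tags, 4.05 times fewer than rpn-6.1. The copies are related in sequence, and the sources used here do not state how tags were divided between them, so their separate values are uncertain.

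Sorted by median, each member's interval met that of the next in all 31 neighbouring pairs. Neighbours were at most 2 nt apart and intervals were up to 10 nt wide, so such meeting says little about classes. Over all 496 pairs of members, 277 had intervals that did not meet. The spread of the members was therefore wider than counting error. Whether they form separate classes was not tested.

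Core and cap overlapped in length. The gene medians had a median of 63 nt in the 14 core genes and of 69 nt in the 18 cap genes, a difference of -6 nt. All 14 core genes lay inside the range of the cap genes, and 14 of 18 cap genes lay inside the range of the core genes. The core gene was the shorter in 158 of the 252 pairs of 1 core and 1 cap gene, the longer in 81 and equal in 13. With all tags of each list pooled, the medians were 64 nt for the core and 68 nt for the cap. The core spanned 59 to 75 nt and the cap 57 to 78 nt. Subunit genes are not replicates of each other, so no test was made of this difference.

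By list medians, the cap genes lay lower than the core genes once tag number and gene length together were taken into account. Core genes were short, with a median span of 1018.5 nt from start to end of the gene in reference annotation, introns included, against 1913.5 nt for cap genes and 2427 nt for all analysed genes. Core genes also had more tags, with a median of 2909 tags against 2087 tags in the cap. A linear fit of the median tail on log2 tags and log2 span over 8779 genes had slopes of -2.62 nt per doubling of tags and 4.92 nt per doubling of span and accounted for 25.6% of the variance. The median difference from this fit was -3.38 nt over the members, -2.59 nt in the core and -7 nt in the cap, with a residual SD of 14.6 nt over all genes. Of the 32 members 26 lay under the fit, 11 of 14 in the core and 15 of 18 in the cap, where 4505 of the 8779 genes lay under it. rpn-7 lay furthest under it, at -15.9 nt, followed by rpn-5 at -14.5 nt and rpn-2 at -12.1 nt, all genes of the cap. pbs-5 lay furthest above it, at 7.65 nt. With tags alone in the fit the medians were -7.48 nt in the core and -8.52 nt in the cap. That difference of 1.04 nt was small beside a residual SD of 15.9 nt, so core and cap were not set apart by this fit.

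**Figure D2:**
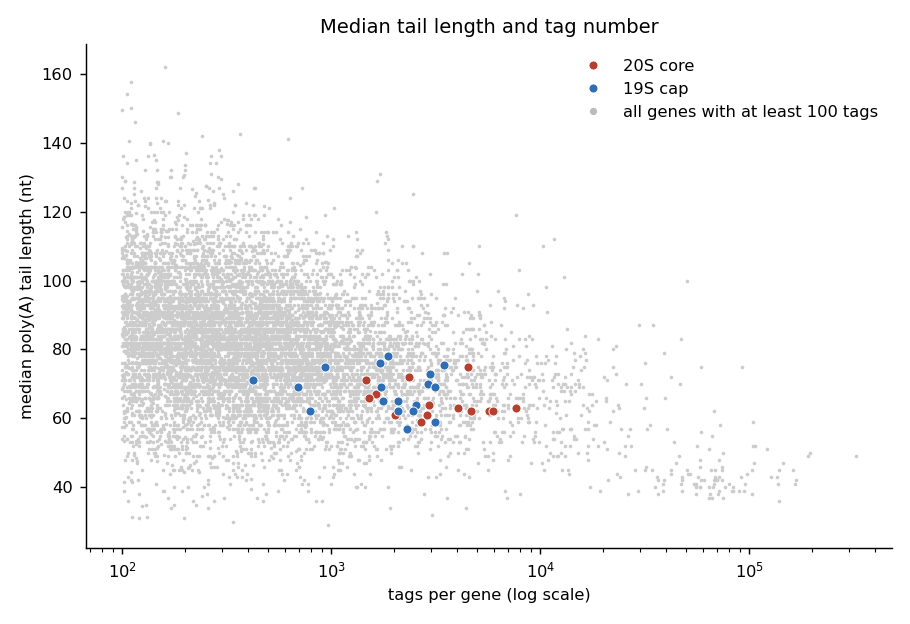
Median poly(A) tail length (nt) against tags per gene (log scale) for the 20S core genes (red), the 19S cap genes (blue) and all genes with at least 100 tags (grey). The members lie between 421 and 7677 tags and in the lower part of the cloud, with core and cap intermixed.

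Among the members the rank correlation of tail length was larger in size with gene span than with tag number. Spearman's rho with tags was -0.28 over the 32 members and -0.30 over the 8779 genes, and rho with gene span was 0.47 over the members and 0.44 over the 8779 genes. These are correlations across genes of 1 pool, in which tag number and tail length come from the same tags.

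The members differed from other genes in their long tails much more than in their short ones. Tails over 100 nt made up a median of 16.4% of a member's tags, against 31.8% over all genes and 28.5% over the genes in the members' tag range. Tails under 30 nt made up a median of 6.52%, against 6.34% and 6.42%. The 95% Wilson interval of the share over 100 nt lay below 31.8% in all 32 members, where 38.5% of all genes and 51.1% of the genes in the members' tag range were below. By this rule 0 members were above, where 36.9% of all genes and 32% of those in the tag range were. The share under 30 nt was above 6.34% in 13 members (40.6%), where 28.8% of all genes and 33.7% of those in the tag range were above. It was below 6.34% in 7 members (21.9%), where 22.8% of all genes and 30.1% of those in the tag range were below. Read by position in the list of tails, the members' median 10th percentile was 33 nt against 35 nt over all genes, a difference of -2 nt. The difference was -7.75 nt at the 25th, -19 nt at the 75th and -25 nt at the 90th percentile. At the 90th percentile the members' median was 111 nt, that of all genes 136 nt and that of genes in the tag range 130.9 nt. The median SD of tails within a gene was 31.6 nt in members, 39.8 nt over all genes and 38.1 nt over the genes in the members' tag range. The SD of all 32 members lay under 39.8 nt, the median over genes. Median SDs were similar in the CCT chaperonin, at 32 nt, and in translation factor eIF3, at 33 nt, both described below. Tails over 100 nt made up a median of 18.8% in CCT and 19.3% in eIF3. Tails under 30 nt made up 6.77% and 7.83%, so the pattern was not particular to the proteasome. The SD was not scaled by tail length, so the smaller SD cannot be separated from the shorter medians.

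**Figure D3:**
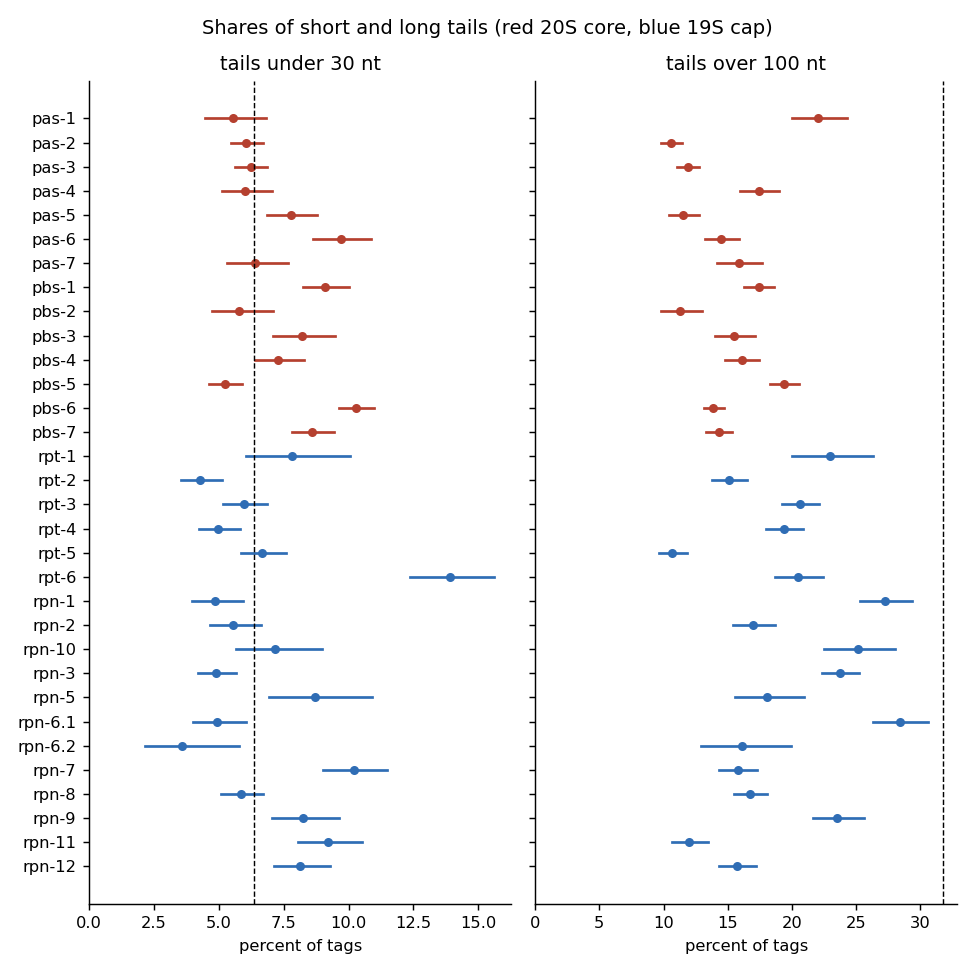
Percent of each member's tags with tails under 30 nt (left) and over 100 nt (right), with 95% Wilson intervals, 20S core in red above the 19S cap in blue. Dashed lines are the medians over all genes, 6.34% and 31.8%. The members lie on both sides of the line for short tails and all on the lower side for long tails.

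By list medians, core and cap also differed more in their long tails than in their short ones. The median share of tails over 100 nt was 15% in the core and 18.7% in the cap, and the median share under 30 nt was 6.84% in the core and 6.31% in the cap. By interval, the share under 30 nt was below 6.34% in 1 of 14 core and 6 of 18 cap genes, where 22.8% of all genes were. It was above 6.34% in 7 core and 6 cap genes, where 28.8% of all genes were. Single genes ranged from 10.6% over 100 nt in pas-2 (9.81 to 11.4%) to 28.4% in rpn-6.1 (26.3 to 30.6%), followed by 27.3% in rpn-1 and 25.2% in rpn-10. Among cap genes, rpt-5 had 10.7% (9.64 to 11.8%) and rpn-11 had 12%, as few as the core genes pbs-2, at 11.3%, and pas-5, at 11.5%. The highest share in the core was 22.1%, in pas-1.

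Genes with the same median could have differently shaped tails. rpt-6 and rpn-2 both had a median of 65 nt. In rpt-6 13.9% of tails (12.4 to 15.6%) were under 30 nt, the highest share of any member, and 20.5% were over 100 nt. In rpn-2 5.56% were under 30 nt (4.65 to 6.62%) and 17.0% were over 100 nt. The middle 50% of tails ran from 39 to 94 nt in rpt-6 and from 47.75 to 90 nt in rpn-2, so the ATPase gene had a broader distribution around the same centre. pbs-6 and rpn-7 also had more short tails than most members, at 10.3% (9.62 to 11%) and 10.2% (9.03 to 11.5%). The fewest were in rpn-6.2, at 3.56% (2.17 to 5.79%), and rpt-2, at 4.26% (3.54 to 5.11%). The tails of pbs-2 had the smallest SD of any member, 26.9 nt, and those of rpn-6.1 the largest, 39.1 nt.

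Each gene given equal weight, the core's distribution had smoothed maxima at 36, 54 and 82 nt, and that of all other analysed genes at 35, 54 and 82 nt. The cap had maxima at 52 and 79 nt, and its rise near the shortest of the core's maxima did not meet the same rule. Tails of 45 to 70 nt made up 31.2% of the core's tags, 29.8% of the cap's and 22.7% of those of other genes. Tails over 100 nt made up 15.1% in the core, 19.4% in the cap and 32.4% in other genes. Tails at the longest listed length, 231 nt, were a median of 0.0780% of a member's tags, against 0.408% over all genes, so few member values were lower bounds.

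**Figure D4:**
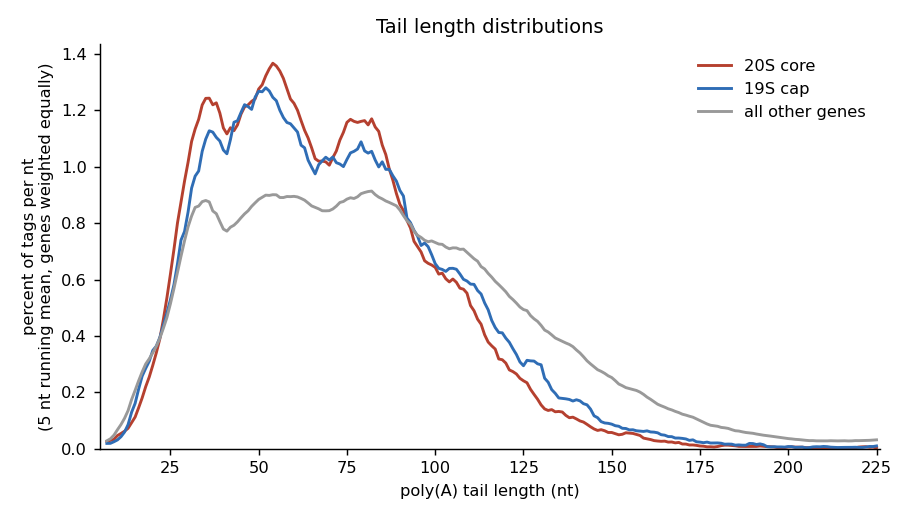
Percent of tags per nt of tail length, as a 5 nt running mean with genes weighted equally, for the 20S core (red), the 19S cap (blue) and all other genes with at least 100 tags (grey), drawn to 225 nt. The curves meet near 22 nt. At 15 nt core and cap lie under other genes (0.112% and 0.161% against 0.207%). Core and cap are higher around 54 nt, and both are lower than other genes above 100 nt.

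Subunits of the particle had unequal tag numbers. Core genes ranged from 1463 tags in pas-1 to 7677 in pbs-6, a 5.25-fold range, and cap genes from 421 tags in rpn-6.2 to 3464 in rpn-3, an 8.23-fold range. The median was 167 tags per 1000000 listed tags in the core and 120.1 in the cap. Fewer cells that hold an mRNA and less of that mRNA per cell cannot be told apart in whole animals. The members lie on chromosomes I (10 genes), II (7), III (7), IV (3) and V (5) in reference annotation and 0 lie on X; 7 of the 14 core genes are on chromosome I.

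A list of 20 genes that act with the proteasome was set by name, and 19 were found. Of these, 16 had a median above the 65 nt of the subunit list. Among all analysed genes 18.9% had a median under 66 nt, so that count was close to the background. By interval, 13 of the 19 were below the median over genes and 3 above it, where 36.7% and 35% of all genes were. In C. elegans, proteasome subunit genes are induced by the transcription factor isoform SKN-1A, an ER-associated protein that is released, deglycosylated by PNG-1 and cut by DDI-1. skn-1 had a median of 107 nt (103 to 111 nt, 1320 tags), with 55.2% of tails over 100 nt, the longest of the list. sel-1, which encodes a component of the ER ubiquitin ligase complex, was also above the median over genes, at 88 nt (85 to 90 nt). The ligase gene sel-11 (73 nt), ddi-1 (73 nt) and png-1 (69.5 nt, 330 tags) were below it. The tags of skn-1 are those of all its isoforms together.

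Of the 11 genes for ubiquitin shuttles, the CDC-48 segregase and its cofactors, and proteasome-linked deubiquitinases, 8 were below the median over genes, 1 above and 2 had intervals that included it. The deubiquitinase genes ubh-4 and usp-14, whose products act on the cap in other animals, had the shortest medians, at 54 nt (52 to 57 nt) and 64 nt (60 to 69 nt). The shuttle genes rad-23 and ubql-1 had medians of 76 and 75 nt. The segregase genes cdc-48.1 and cdc-48.2 had medians of 82 nt (80 to 83 nt) and 68 nt (67 to 70 nt), and their cofactor genes ranged from 68 nt in npl-4.1 through 72 nt in ufd-1, 75 nt in npl-4.2 and 81 nt in ufd-3 to 95 nt in ufd-2. The paired cdc-48 and npl-4 genes are close copies of each other, so their separate values are uncertain. Among other factors, dss-1, a small lid subunit gene outside the naming rule, had a median of 75 nt (74 to 78 nt), psme-3, for an activator of the core, of 80 nt, and psmd-9, for a chaperone of cap assembly in yeast and mammals, of 58 nt (54 to 64 nt). The 19 genes had a median of 75 nt and a range of 54 to 107 nt, against 65 nt and 57 to 78 nt in the 32 subunits. They also had fewer tags, with a median of 990 against 2410.5. The median difference from the fit on tags and gene span was similar, -2.87 nt in the 19 genes and -3.38 nt in the subunits. With tags alone in the fit it was not. The middle value of the 19 genes was then 0.166 nt, that of dss-1, against -7.64 nt in the subunits. The similarity therefore depends on gene span, whose median was 2652 nt in the 19 genes and 1392 nt in the subunits.

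The 4 other complexes of many subunits had list medians from 65 to 75 nt, at or above that of the proteasome and under that of all genes. The COP9 signalosome and translation factor eIF3 are relatives of the lid in subunit make-up. The COP9 signalosome (6 genes) had a median of 71.5 nt, from csn-5 at 57 nt to csn-6 at 80 nt, with 3 genes below the median over genes. csn-5 encodes the counterpart of rpn-11, which had 62 nt. eIF3 (10 genes) also had a median of 71.5 nt, from eif-3.D at 59 nt to eif-3.J at 77 nt, with 9 below. The CCT chaperonin (7 genes) had the same median as the proteasome, 65 nt, from cct-6 at 63 nt to cct-3 at 77 nt, with all 7 below. The vacuolar ATPase (20 genes) had a median of 75 nt, from vha-6 at 59 nt to vha-5 at 99 nt, with 15 below and 3 above. Over all genes 36.7% were below and 35% above, so the 3 of 6 COP9 genes below are not far from the background. Among these lists the SD of gene medians was 5.73 nt in the proteasome, 5.35 nt in CCT, 6.71 nt in eIF3, 9.57 nt in the vacuolar ATPase and 10.6 nt in COP9. Median tags per gene were 2410.5 in the proteasome, 1668 in CCT, 1016.5 in eIF3, 3937.5 in the vacuolar ATPase and 698.5 in COP9, so the lists also differed in abundance. The median difference from the fit on tags and gene span was -3.38 nt in the proteasome, -10.3 nt in CCT and -6.61 nt in eIF3. It was 5.26 nt in the vacuolar ATPase and -16.2 nt in COP9. By this fit the list medians of CCT, eIF3 and COP9 lay under that of the proteasome, within the residual SD of 14.6 nt. Median gene spans were 1392 nt in the proteasome, 2159 nt in CCT, 2136 nt in eIF3 and 6030 nt in COP9. With tags alone in the fit the proteasome's value was -7.64 nt. The order of the lists therefore holds only for the fit that includes gene span. The part of abundance alone in these differences was not tested.

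**Figure D5:**
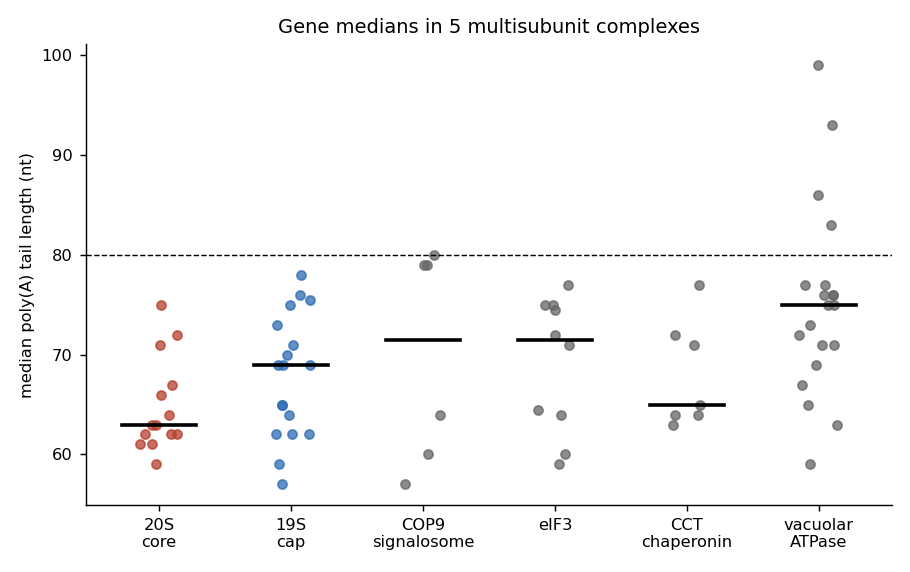
Median poly(A) tail length (nt) of each gene in the 20S core, the 19S cap and 4 other multisubunit complexes. Points are genes, horizontal bars list medians (63 nt in the core, 69 nt in the cap, 71.5 nt in COP9 and in eIF3, 65 nt in CCT and 75 nt in the vacuolar ATPase) and the dashed line the median over genes, 80 nt. Of these lists, only the vacuolar ATPase has genes above the line.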

How the data were processed

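mTAIL-seq libraries of 2 replicates of wild-type L4 animals were analysed from 1 deposited table. Per the labels' protocols, RNA was partially digested with RNase T1, fragments of 250 to 1000 nt were selected, and libraries were sequenced on a MiSeq (51 and 251 cycles) with tails called by tailseeker2. STAR and bedtools are named in the submitters' processing notes; the sources used here do not state their versions and roles, the genome build or any collapse of PCR copies. The deposited counts are numbers of tail calls per gene, with both replicates together and no normalization, and were equal to the length of each gene's list of tail lengths. The deposited median and SD were recovered from that list with 0 differing genes of 13601. Depth is known for the pool alone: 17376490 tags, from 10 tags per gene up.

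Genes with at least 100 tags were analysed. Medians carry 95% exact binomial order-statistic intervals and shares 95% Wilson intervals; PCR copies, if present, make both too narrow. A gene was called below or above when its interval lay wholly on that side of the median over genes. The call and the fit were run on simulated data as a check of the code. Simulated tails came from the same pooled distribution for every gene, so PCR copies and differences in shape between genes were not covered. The planned fit on protein length was replaced by gene span from RefSeq annotation (WBcel235, 13549 genes matched), since no protein lengths were used here. The members, the lists and the comparisons were chosen with earlier results of these data known. Every member and every pathway gene is named, and of each comparison list the shortest and longest gene; rpn-13 was added after the table was read. The pathway gene umpp-1 is not analysed here. Alternatives were mean or log2 tails, other tag minimums, tails of at least 20 nt, no calls at 231 nt, another centre and a 20 nt margin. Python 3.11.15, numpy 2.4.6, scipy 1.17.1 and matplotlib 3.10.9 were used.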

Additional observations from a re-analysis of the deposited data

How the results depend on the processing

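Leaving out a replicate was not run, because both replicates are in 1 list per gene. No paired analysis was possible because there is 1 group and its replicates are pooled. The count of members below the median over genes stayed between 27 and 32 with mean or log2 tails, other tag minimums, tails of at least 20 nt or no calls at 231 nt. With rpn-13 added it was 32 of 33. Between 31.6% and 39.8% of all genes were below under these settings. The count depended on the margin and on the centre. It was 3 with a margin of 20 nt, where 11.8% of all genes were called, so most members lie less than 20 nt under the centre. Centred on the median over tags, 58 nt, it was 0 of 32 members, against 5.69% of all genes, and 28 members lay above, against 85% of all genes. The members' median minus that over genes, -15 nt in the main analysis, was -17 nt over all listed genes, -11 nt with at least 400 tags and -11.1 nt with log2 tails. The core minus cap difference, -6 nt, was -4 nt with tags pooled and kept its sign in all alternatives run. The members' median difference from the fit, -3.38 nt, was -7.64 nt with tags alone. The core minus cap difference from the fit, 4.41 nt, was 1.04 nt with tags alone, so its size depends on whether gene span is in the fit. The cause of the other shifts was not tested. Depth limits rpn-6.2 and rpt-1 most, with intervals of 8 and 10 nt.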
